A study of Mus musculus with 72 samples.

Results

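Nucleic acid sensors are proteins that recognise RNA or DNA in places where a healthy cell holds little of it. The 10 sensor genes described here, out of 36047 mouse genes in the tables, were taken by name: Ddx58, Ifih1, Dhx58, Tlr3, Tlr7, Tlr9, Eif2ak2, Zbp1, Tmem173 and Aim2. They were followed as a readout of how the innate immune system met injected nucleic acid circuits, in 5 organs (lung, liver, kidney, spleen, thymus) and in lung tumours. All animals were EGFR DEL19 mice, which carry a human EGFR transgene with an activating deletion and had been given doxycycline for 25 days until lung tumours were seen. Each then received 1 of 3 circuits under a CMV promoter, at 10 mg/kg into a vein every 2 days for 7 injections, and tissues were taken on day 14. The control, CMV-scrR, carried a scrambled RNA. The circuit CMV-siRE made an siRNA that targets EGFR, and the third, CMV-GE11-siRE, added the EGFR-binding peptide GE11 to it. For every circuit there were 4 libraries per tissue, which gives 72. All 3 groups, the CMV-scrR control included, had therefore received a circuit, and no uninjected mice are among the groups, so a response that the 3 circuits share cannot be seen in these comparisons. The sources used here do not give the cells in which the transgene is active, nor the number of animals behind a library.

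The sensors fall into groups by what they bind and where. Ddx58 (RIG-I) and Ifih1 (MDA5) are cytosolic helicases that bind viral or otherwise foreign double-stranded RNA and signal through the mitochondrial adaptor Mavs, and Dhx58 (LGP2) is the related helicase that regulates them without signalling domains of its own. Tlr3, Tlr7 and Tlr9 sit in endosomes and recognise double-stranded RNA, single-stranded RNA and unmethylated CpG DNA. Eif2ak2 (PKR) is a kinase that is switched on by double-stranded RNA and stops translation, and Zbp1 binds Z-form nucleic acid and can start necroptosis. Tmem173 (STING) relays the signal of the DNA sensor cGAS, and Aim2 binds cytosolic DNA and builds an inflammasome. Most of these pathways end in type I interferon, which in turn raises the transcription of several of the sensors themselves.

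Because several sensors are themselves interferon-induced, the start sites of the 6 with an entry among the RefSeq promoter sequences (GRCm38.p6), Ddx58, Ifih1, Tlr3, Tlr9, Eif2ak2 and Aim2, were searched for a core of the interferon-stimulated response element. The motif was GAAANNGAAA or its reverse complement TTTCNNTTTC, in windows of 300 bases from 250 before to 50 after the start site, and no other motif was searched. It was found in the windows of Ddx58, Ifih1 and Eif2ak2, 3 of 6, against 1131 of 32851 promoter windows (3.44%), and its letters were not in the windows of Tlr3, Tlr9 and Aim2. Each of the 3 matches begins after the start site, 3 bases from it in Ddx58, 33 in Ifih1 and 19 in Eif2ak2. The 30 bases that hold it are shown on the strand of the gene, minus in each case, 5′ to 3′, with the match in capitals, for chr4:40239804-40239833, chr2:62646206-62646235 and chr17:78882535-78882564.
Ddx58: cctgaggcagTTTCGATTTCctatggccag
Ifih1: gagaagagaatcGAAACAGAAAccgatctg
Eif2ak2: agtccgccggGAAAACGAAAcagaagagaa
The match of Ddx58 is the reverse complement form, and those of Ifih1 and Eif2ak2 read as written. These letters describe the sequence and do not show binding or use of the site in these tissues.

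In GRCm38 (GENCODE M21) all 10 are protein-coding genes. Ddx58 lies at chr4:40203773-40239828, Ifih1 at chr2:62595798-62646255 and Dhx58 at chr11:100694884-100704271, all 3 on the minus strand. Tlr3 lies at chr8:45395665-45411080 and Tlr7 at chrX:167304929-167330558 on the minus strand, and Tlr9 at chr9:106222598-106226883 on the plus strand. Eif2ak2 (chr17:78852564-78882573) and Zbp1 (chr2:173206612-173218923) are on the minus strand, as is Tmem173 at chr18:35733679-35740554, while Aim2 (chr1:173350879-173466040) is on the plus strand. Values are per gene, over all exons. Exons of Dhx58, Tlr3 and Eif2ak2 overlap antisense genes (Dhx58os, Gm45542, and Gm26637 with n-R5s29), and since no strand setting is named in the sources used here, reads of each pair cannot be told apart.

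The values are gene counts that the authors divided by size factors, here called normalized values, and each tissue was scaled on its own. Approximate depth ran from 12.15 M to 20.88 M (M, in units of 1000000) over the 72 libraries, normalized column totals from 16.905 M to 21.376 M in the 5 organs and from 5.8662 M to 43.814 M in tumours, and 15523 to 21522 genes had a value above 0. The labelled organs showed their defining markers, such as a summed 71100 to 118000 CPM for 8 hepatocyte genes in the liver controls (CPM is the value rescaled to a column total of 1000000). The human EGFR transcript that the siRNA is aimed at was measured in tumour, where it had 1992 to 4025 with CMV-scrR, 451.6 to 1324 with CMV-siRE and 39.23 to 132.5 with CMV-GE11-siRE, with no overlap. The tumour libraries stood apart in their mitochondrial share, the part of a column total on mitochondrially encoded genes. Its mean was 68.6% ± 3.77 (SD, n = 4) in CMV-scrR tumours, 60.1% ± 11.6 in CMV-siRE and 20.6% ± 12.5 in CMV-GE11-siRE tumours, against 0.5577% to 12.66% in the organs. Ddx3y, a Y-linked gene, was at 330 to 422 in 4 tumour libraries (1 of CMV-scrR, 2 of CMV-siRE and 1 of CMV-GE11-siRE) and at most 22.9 elsewhere.

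Under the control circuit the spleen held the highest level of 8 of the 10 sensors, and Tlr3 and Ifih1 were highest in lung. The endosomal DNA receptor Tlr9 was the sharpest case, with 133.6 ± 11.9 CPM (SD, n = 4) in spleen against 16.34 ± 6.05 in lung, the next tissue. Tlr7, Tmem173 and Aim2 also had every spleen library above every library of the next tissue, with 48.76 ± 6.47, 99.08 ± 13.7 and 56.35 ± 8.48 CPM in spleen. Ddx58, Dhx58, Eif2ak2 and Zbp1 led in spleen too, but their ranges there overlapped the next tissue, for Zbp1 at 153.5 ± 75.2 CPM in spleen, 116.0 ± 71.8 in lung and 92.79 ± 39.6 in liver. Tlr3 had 33.92 ± 3.32 CPM in lung, with every library above the 19.39 ± 7.46 of kidney. With mitochondrial reads taken out of the total, Tlr3 overlapped, at 30.69 to 38.45 CPM in lung and 13.26 to 32.15 in kidney. Ifih1 had 80.11 ± 22.6 CPM of the full total in lung, 64.61 ± 7.52 in liver and 60.76 ± 11.2 in spleen, ranges that overlapped. These levels compare tables that were normalized separately, and in bulk tissue fewer cells of a type and less RNA per cell cannot be told apart.

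Tumour had the lowest control level of 9 sensors, the exception being Tlr7, which was lowest in kidney (3.059 ± 0.401 against 3.187 ± 2.49 CPM, overlapping). That order depended on the mitochondrial reads. With them taken out of the total, tumour stayed lowest only for Ddx58 (44.15 CPM), Dhx58 (9.203), Tlr3 (3.969) and Tlr9 (1.751), and for the first 3 of these its range then overlapped the next tissue.

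Per kilobase of exon, which allows genes to be compared with each other, Zbp1 led in spleen (43.51 ± 21.3 CPM per kb), lung (32.88), liver (26.29), thymus (17.54) and tumour (2.978), while in kidney Ddx58 led with 12.35. In spleen Tlr9 (38.41 ± 3.42) and Tmem173 (36.15 ± 5.01) stood next to Zbp1 and did not differ from it beyond the spread of Zbp1, and Tlr3 was the lowest sensor there at 3.627. In tumour Zbp1 was followed by Eif2ak2 (2.253), Ddx58 (2.038) and Ifih1 (1.638), with Tlr9 last at 0.165. Zbp1 therefore had the highest mean of the sensors in 5 of 6 tissues. In tumour it lay within the spread of the next sensor, at 2.978 ± 2.54 against 2.253 ± 1.23 for Eif2ak2. Its SD between control libraries was large in lung (20.3) and liver (11.2) as well as in spleen, but small in thymus (1.90).

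**Figure D1:**
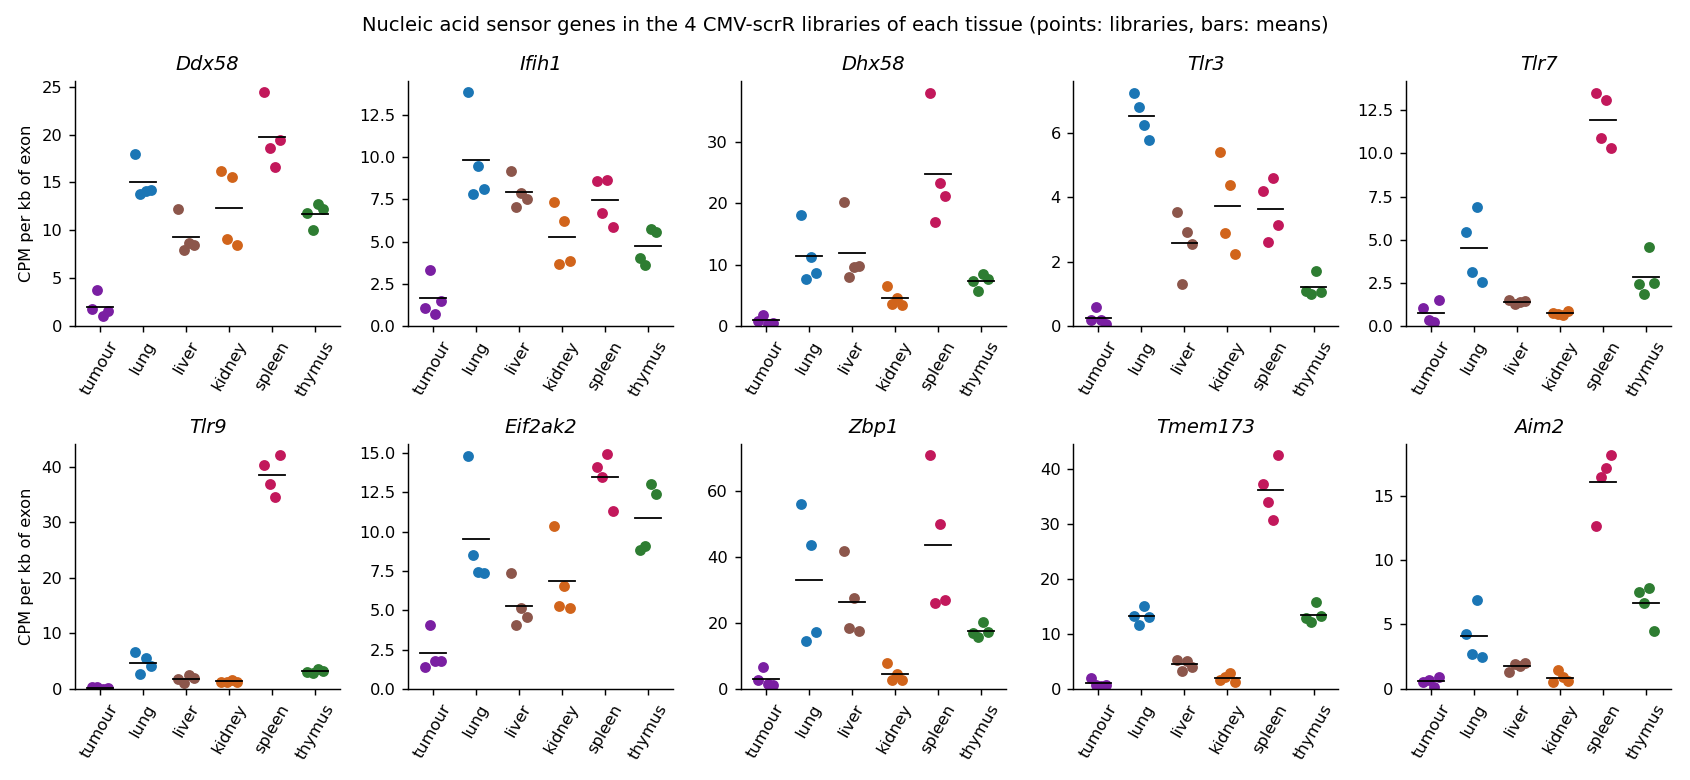
Level of each of the 10 sensor genes in the 4 CMV-scrR libraries of each tissue, as CPM per kilobase of exon on a linear axis from 0, with points for libraries and bars for means. Spleen stands highest for Tlr7, Tlr9, Tmem173 and Aim2 with no overlap, and the spread of Zbp1 in spleen, lung and liver is wide.

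The circuits were compared within each tissue by limma on log2(value + 1), with 12 libraries in a fit, with Benjamini-Hochberg adjustment over every gene tested in a comparison. A gene is said to have risen or fallen where its adjusted p was under 0.05, and errors of differences are SE of that fit. Both comparisons with CMV-scrR use the same 4 control libraries. The labels do not say whether libraries of 1 group are separate animals, so the p-values reflect only the spread among these libraries, which may be technical.

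The largest changes of the sensors were in tumours given CMV-GE11-siRE, where Zbp1 and Ifih1 fell and Tlr3 and Tmem173 rose against CMV-scrR. These were 4 of the 9 sensors tested, in a comparison where 22.1% of 14044 genes rose and 19.8% fell, so the count stands near that of genes at large. The 4 libraries did not overlap the 4 controls for any of these genes, which was so for 21.5% of all genes on the lower side and 23.7% on the higher side. The median difference of the 9 sensors was 0.06 (log2), beside 0.05 for all genes.

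Zbp1, the Z-nucleic acid sensor, had 257.3, 496.8, 179.8 and 154.1 with CMV-scrR, 82.33, 158.8, 275.3 and 101.2 with CMV-siRE, and 50.09, 29.67, 43.66 and 80.90 with CMV-GE11-siRE, as normalized values. The highest CMV-GE11-siRE tumour was below the lowest of the other 8. It fell by 2.32 ± 0.44 on the log2 scale against CMV-scrR, or 5.01-fold (limma adjusted p = 0.0016), and its difference from CMV-siRE, -1.51 ± 0.44, did not pass (adjusted p = 0.077). The RNA helicase Ifih1 had 237.1, 571.3, 210.1 and 445.2 with CMV-scrR and 116.0, 96.26, 169.1 and 88.14 with CMV-GE11-siRE. The CMV-siRE tumours, at 102.5, 245.6, 336.6 and 231.3, overlapped both. Ifih1 fell by 1.55 ± 0.39 against CMV-scrR, or 2.94-fold (limma adjusted p = 0.00716).

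Tlr3, the endosomal receptor for double-stranded RNA, had 25.40, 64.29, 38.03 and 11.58 with CMV-scrR and 132.2, 122.4, 151.6 and 107.3 with CMV-GE11-siRE. The CMV-siRE tumours spread from 37.56 to 146.0 across both ranges. Tlr3 rose by 2.08 ± 0.49 (log2), or 4.23-fold (limma adjusted p = 0.00481). Tmem173, the adaptor of cytosolic DNA sensing, had 142.2, 44.89, 46.52 and 78.75 with CMV-scrR and 165.9, 151.5, 144.8 and 236.8 with CMV-GE11-siRE, so that the lowest treated tumour lay just above the highest control. It rose by 1.29 ± 0.37, or 2.44-fold (limma adjusted p = 0.0132). The 4 calls held without each of the 12 libraries in turn.

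The other 5 sensors tested in tumour did not pass with CMV-GE11-siRE. Their differences were 0.11 ± 0.25 for Ddx58, 0.06 ± 0.31 for Dhx58, -0.54 ± 0.33 for Eif2ak2, -1.42 ± 0.70 for Tlr7 and 0.39 ± 0.42 for Aim2, with overlapping groups. Tlr9 was too low for the test, with 0 to 26.42 in the controls and 1.108 to 4.237 with CMV-GE11-siRE. With CMV-siRE no sensor was called against CMV-scrR, where 0.256% of all genes were, and none in the comparison of both siRNA circuits, where 0.0214% were. At an unadjusted p under 0.05 these comparisons held 1 and 2 sensors of 9, beside 21.4% and 26.2% of all genes.

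The direction of a tumour difference depended on the scaling. Scaled by the total without mitochondrial genes, which moved the median of all genes with CMV-GE11-siRE from 0.05 to 0.80 (log2), Zbp1 still fell (-1.57), Tlr3 and Tmem173 rose (2.82 and 2.04), and Ifih1 did not pass (-0.80). Scaled by the column total, with a median of 2.11 for all genes, Tlr3 (4.13) and Tmem173 (3.36) rose and Zbp1 (-0.26) and Ifih1 (0.53) did not pass, so that Ifih1 turned its sign. On that scale Aim2 (2.45), Ddx58 (2.20), Dhx58 (2.13) and Eif2ak2 (1.54) rose as well. The split of all genes moved with it, from 22.1% higher and 19.8% lower as deposited to 43.2% and 4.34% without mitochondrial genes in the total and 81.0% and 0.413% by the column total. Each rescaling multiplies a whole library by 1 factor, so a difference relative to the median gene is almost fixed by construction. For Zbp1 it was -2.38 as deposited and -2.37 on both of these scales, and for Ifih1 -1.61, -1.60 and -1.59. These values therefore do not test whether the falls depend on the scaling. When the mitochondrial share was made a covariate, no gene of the table was called. The differences were -2.19 ± 1.13 for Zbp1, -0.80 ± 0.97 for Ifih1, 0.04 ± 1.075 for Tlr3 and 0.95 ± 0.93 for Tmem173. The share was 63.0% to 71.5% with CMV-scrR and 8.04% to 37.9% with CMV-GE11-siRE, without overlap. This fit can therefore hardly separate the share from the circuit.

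**Figure D2:**
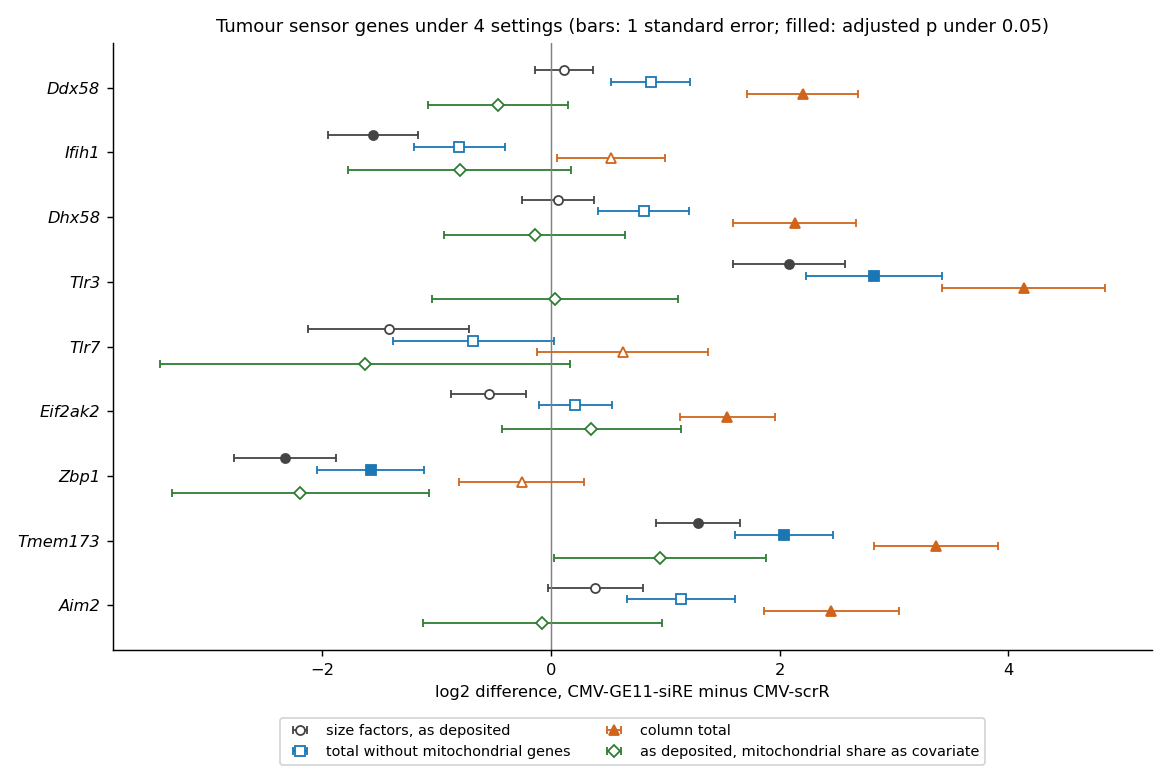
Difference of CMV-GE11-siRE from CMV-scrR in tumour (log2) for the 9 sensors tested, under the deposited scaling, the total without mitochondrial genes, the column total, and the mitochondrial share as a covariate. The estimate of Zbp1 lies below 0 and those of Tmem173 and Tlr3 above 0 under all 4. With the covariate none of them passed (Tlr3 at 0.04 ± 1.075), nor did Zbp1 under the column total (-0.26 ± 0.55). Ifih1 passes 0 under the column total.

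Marker genes of other cells moved in the same tumours, where 22.1% of all genes rose and 19.8% fell with CMV-GE11-siRE. Of 8 lung epithelium markers 6 rose with CMV-GE11-siRE, with a summed level of 2560 to 3670 CPM with CMV-scrR, 3400 to 56400 with CMV-siRE and 46700 to 95900 with CMV-GE11-siRE. Of 9 macrophage markers tested 5 fell, among them Adgre1 (-2.27 ± 0.54) and C1qb (-1.47 ± 0.42) as normalized values. Their summed level in CPM, whose total includes mitochondrial reads, was 47.3 to 186 with CMV-scrR, 58.8 to 104 with CMV-siRE and 131 to 278 with CMV-GE11-siRE. Vsig4 had a normalized value below 1 in every tumour library. The part of these cells in the sensor differences was not tested.

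In spleen 3 sensors fell with CMV-siRE against CMV-scrR, Zbp1 and the helicases Dhx58 and Ifih1, 3 of 10 where 2.88% of 16015 genes fell. With CMV-GE11-siRE Zbp1 fell, where 3.47% of genes did, and Aim2 rose, where 2.29% did. Zbp1 had 5224, 1874, 3506 and 1808 with CMV-scrR, 1076, 990.7, 1241 and 1254 with CMV-siRE, and 1013, 1098, 1109 and 1663 with CMV-GE11-siRE. All 8 libraries of the siRNA circuits lay below all 4 controls, of which numbers 1 and 3 were the highest. Zbp1 fell by 1.31 ± 0.28 with CMV-siRE (2.47-fold, limma adjusted p = 0.0188) and by 1.23 ± 0.28 with CMV-GE11-siRE (2.34-fold, adjusted p = 0.027). The split of all genes in spleen depended on the scaling: 277 rose and 462 fell with CMV-siRE as deposited, and 699 and 347 by the total without mitochondrial genes, with the median of all genes at 0.11 (367 and 556, then 559 and 385, for CMV-GE11-siRE). The 5 sensor calls were made under each scaling.

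Dhx58 in spleen had 2596, 1126, 1509 and 1308 with CMV-scrR and 897.2, 830.3, 949.8 and 771.0 with CMV-siRE, which did not overlap. It fell by 0.85 ± 0.21 (1.80-fold, limma adjusted p = 0.036), and with CMV-GE11-siRE, at 834.9 to 1246, its difference of -0.65 ± 0.21 did not pass (adjusted p = 0.0826). Ifih1 had 1465, 1111, 1396 and 908.5 with CMV-scrR and 737.2, 855.6, 734.6 and 649.9 with CMV-siRE, again without overlap, and fell by 0.69 ± 0.16 (1.62-fold, adjusted p = 0.0254). With CMV-GE11-siRE Ifih1 stood at 886.2 to 1272, all 4 libraries above those of CMV-siRE, a difference of 0.57 ± 0.16 that did not pass (adjusted p = 0.262).

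Aim2, the inflammasome sensor of DNA, went the other way in spleen. It had 922.7, 1170, 1193 and 1204 with CMV-scrR, 1469, 1306, 1649 and 1226 with CMV-siRE, and 1554, 1302, 1640 and 1831 with CMV-GE11-siRE, all 8 above all 4 controls. Of all genes, 5.88% lay above the controls in this way for CMV-siRE and 6.37% for CMV-GE11-siRE. Aim2 rose by 0.49 ± 0.13 with CMV-GE11-siRE (1.41-fold, limma adjusted p = 0.0423), and its difference with CMV-siRE, 0.33 ± 0.13, did not pass (adjusted p = 0.167). Tlr9, the CpG DNA receptor, had 2934, 2599, 2379 and 2771 with CMV-scrR, 1972, 1738, 2238 and 1146 with CMV-siRE and 2030, 1624, 1863 and 2172 with CMV-GE11-siRE. All 8 were below all 4 controls, yet neither difference passed (-0.63 ± 0.17, adjusted p = 0.0511, and -0.48 ± 0.17, adjusted p = 0.103).

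The remaining spleen sensors, Ddx58, Tlr3, Tlr7, Eif2ak2 and Tmem173, did not pass in any comparison. The kinase Eif2ak2 stood at 1099 to 1513 with CMV-scrR, 612.1 to 1150 with CMV-siRE and 978.6 to 1917 with CMV-GE11-siRE, with differences of -0.62 ± 0.22 and 0.18 ± 0.22 from the control. The 4 CMV-siRE libraries were all lower than the controls for 4 sensors (Zbp1, Dhx58, Ifih1 and Tlr9), beside 7.06% of all genes, and those of CMV-GE11-siRE for 2, beside 7.37%. No sensor differed between both siRNA circuits, where 0.112% of genes did and 2 sensors had an unadjusted p under 0.05, as did 9.79% of genes.

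Each spleen call was lost without single libraries. The fall of Zbp1 with CMV-siRE was lost without CMV-scrR library 3 (adjusted p = 0.0538) or CMV-siRE library 2 (0.0537), and that with CMV-GE11-siRE without CMV-scrR library 1 or 3 or CMV-GE11-siRE library 1 or 3 (0.0593 to 0.0778). The call of Dhx58 was lost without CMV-scrR library 3 or any CMV-siRE library (0.0621 to 0.085), that of Ifih1 without CMV-scrR library 1 or 3 or CMV-siRE library 1, 3 or 4 (0.0586 to 0.071), and that of Aim2 without 9 of the 12 libraries (0.0534 to 0.121), namely all but CMV-siRE libraries 3 and 4 and CMV-GE11-siRE library 2. In these fits the differences kept their signs, at -1.52 to -1.01 and -1.44 to -0.93 for Zbp1, -1.004 to -0.60 for Dhx58, -0.83 to -0.60 for Ifih1 and 0.40 to 0.58 for Aim2. Without CMV-scrR libraries 1 and 3 together, an alternative chosen after seeing the data, no spleen sensor was called, with Zbp1 at -0.70 ± 0.18 for CMV-siRE (adjusted p = 0.0793) and -0.62 ± 0.18 for CMV-GE11-siRE (0.158), Dhx58 at -0.50, Ifih1 at -0.44 and Aim2 at 0.40.

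Markers of spleen cells and the mitochondrial share moved with the circuits. Of 8 conventional dendritic cell markers 6 fell with CMV-siRE, such as Xcr1 (-1.46 ± 0.27) and Clec9a (-1.23 ± 0.23), with summed levels of 230 to 364 CPM in the controls, 168 to 199 with CMV-siRE and 234 to 268 with CMV-GE11-siRE. Of 9 erythroid markers 6 fell with CMV-siRE, from a sum of 44200 to 60500 CPM to 6220 to 16100, with 26900 to 50000 for CMV-GE11-siRE. Of 10 T and NK cell markers 5 fell with CMV-GE11-siRE, among them Gzmb (-2.34 ± 0.26), with sums of 432 to 544 CPM in the controls and 337 to 426. The macrophage gene Marco rose in both (2.39 ± 0.24 and 1.45 ± 0.24), and the sums of 12 macrophage markers were 1070 to 1930, 1760 to 2070 and 1310 to 2040 CPM in the order CMV-scrR, CMV-siRE and CMV-GE11-siRE. Each marker of these 4 lists reached a normalized value of 1 in at least 1 spleen library. The mitochondrial share was 1.59% to 1.74% in the controls, 2.05% to 2.26% with CMV-siRE and 1.9% to 2.18% with CMV-GE11-siRE, and with it as a covariate no sensor was called. Since the share of the controls did not overlap that of either siRNA group, this fit can hardly separate it from the circuit. The part of these cells and of the share in the sensor differences was not tested.

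In liver all 10 sensors had a difference below 0 with both siRNA circuits, and 1 of 10 passed with CMV-siRE and 3 of 10 with CMV-GE11-siRE, beside 1.97% and 2.04% of 14484 genes that fell. The median of the 10 was -0.48 for CMV-siRE and -0.43 for CMV-GE11-siRE, beside 0.0012 and 0.0051 for all genes. Groups without overlap were seen for 3 sensors with CMV-siRE (Ddx58, Ifih1 and Tmem173) and for 2 with CMV-GE11-siRE (Tlr9 and Tmem173), beside 6.59% and 5.68% of all genes. Since both comparisons use the same controls, their likeness carries no weight of its own.

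Ifih1 in liver had 1527, 1212, 1292 and 1227 with CMV-scrR and 1080, 957.7, 886.8 and 847.0 with CMV-siRE, with no overlap, and fell by 0.48 ± 0.11 (1.39-fold, limma adjusted p = 0.0272). With CMV-GE11-siRE, at 1042 to 1326, it did not pass (-0.21 ± 0.11, adjusted p = 0.293). Tmem173 had 296.7, 191.9, 279.2 and 221.5 with CMV-scrR and 173.7, 117.7, 162.3 and 149.7 with CMV-GE11-siRE, also without overlap, and fell by 0.70 ± 0.17 (1.63-fold, adjusted p = 0.0367). The CMV-siRE livers, at 131.5 to 172.5, were likewise below all controls, with a difference of -0.61 ± 0.17 that did not pass (adjusted p = 0.0639).

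Tlr9 in liver had 130.3, 77.03, 176.5 and 132.5 with CMV-scrR and 58.12, 45.00, 63.17 and 69.29 with CMV-GE11-siRE, again all lower, and fell by 1.08 ± 0.26 (2.11-fold, limma adjusted p = 0.0366). Zbp1 had 2996, 1371, 1943 and 1237 with CMV-scrR, 816.5, 796.4, 871.5 and 1304 with CMV-siRE and 515.4, 764.6, 629.2 and 1410 with CMV-GE11-siRE. In both siRNA groups library 4 reached into the range of the controls while the other 3 lay below it. Zbp1 fell by 1.20 ± 0.31 with CMV-GE11-siRE (2.30-fold, adjusted p = 0.044), and its difference of -0.93 ± 0.31 with CMV-siRE did not pass (adjusted p = 0.107). Dhx58, at 551.5 to 1338 in the controls and 330.6 to 575.2 with CMV-siRE, did not pass either (-0.85 ± 0.26, adjusted p = 0.0869). Both siRNA circuits did not differ in any liver sensor, where 0.0069% of genes were called and 1 sensor had an unadjusted p under 0.05, as did 7.66% of genes.

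Each liver call was lost without single libraries. Ifih1 lost it without CMV-scrR library 1 or 3 or CMV-siRE library 2, 3 or 4 (adjusted p = 0.0554 to 0.0861), Tmem173 without CMV-scrR library 1, 3 or 4, CMV-siRE library 2 or any CMV-GE11-siRE library (0.0506 to 0.101), Zbp1 without CMV-scrR library 1 or 3, CMV-siRE library 1, 2 or 3 or CMV-GE11-siRE library 1, 2 or 3 (0.0546 to 0.123), and Tlr9 without CMV-scrR library 1, 3 or 4, CMV-siRE library 3 or CMV-GE11-siRE library 1, 2 or 3 (0.0533 to 0.0975). None of the 10 was called without CMV-scrR libraries 1 and 3 together, at -0.38 for Ifih1 with CMV-siRE and -0.46, -0.76 and -0.79 for Tmem173, Zbp1 and Tlr9 with CMV-GE11-siRE. Beside these calls, 2 of 12 macrophage markers fell with CMV-siRE, Clec4f (-1.29 ± 0.28) and C1qa (-0.58 ± 0.13), and C1qa fell with CMV-GE11-siRE (-0.59 ± 0.13). Their sums were 930 to 1720 CPM with CMV-scrR, 701 to 1590 with CMV-siRE and 803 to 1090 with CMV-GE11-siRE. With CMV-siRE 3 of 6 erythroid markers tested also fell, led by Hba-a2 (-1.67 ± 0.34), with sums of 210 to 356 CPM in the controls, 104 to 124 with CMV-siRE and 160 to 757 with CMV-GE11-siRE. Of 7 plasmacytoid dendritic cell markers tested Bst2, which interferon also induces, fell with both circuits (-0.81 ± 0.16 and -0.73 ± 0.16), with sums of 213 to 319, 165 to 193 and 157 to 227 CPM. The sums of lung epithelium markers in liver were 182 to 200, 131 to 166 and 159 to 172 CPM. The part of these cells in the differences was not tested.

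In lung no sensor was called with CMV-siRE, where 1.41% of 16165 genes were (78 higher and 150 lower, or 126 and 114 by the total without mitochondrial genes), and none with CMV-GE11-siRE, where limma called 0.0% of all genes, nor between both siRNA circuits, where it called 0.0619%. At an unadjusted p under 0.05 these comparisons held 5, 4 and 1 sensors of 10, beside 17.6%, 7.9% and 9.97% of all genes. Zbp1 had 4018, 1044, 3235 and 1197 with CMV-scrR, 818.0, 989.9, 875.7 and 950.0 with CMV-siRE and 622.9, 889.4, 788.4 and 978.1 with CMV-GE11-siRE. Every siRNA library was below every control, but the controls fell into a high pair, numbers 1 and 3, and a pair close to the siRNA libraries. The differences of Zbp1 were -1.15 ± 0.35 (limma adjusted p = 0.105) and -1.31 ± 0.35 (adjusted p = 0.254), and without CMV-scrR library 2 the first passed, at -1.46 (adjusted p = 0.0465). They were -0.30 ± 0.16 and -0.47 ± 0.16 without CMV-scrR libraries 1 and 3.

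The lung helicases followed the same layout. Dhx58 had 1200, 508.7, 766.4 and 561.5 with CMV-scrR, 347.0, 383.0, 500.0 and 537.5 with CMV-siRE and 321.7, 427.0, 412.8 and 486.1 with CMV-GE11-siRE, with differences of -0.72 ± 0.24 and -0.81 ± 0.24. Ifih1 had 2290, 1295, 1624 and 1315 with CMV-scrR and overlapped both siRNA groups, at 884.6 to 1316 and 907.2 to 1348, with differences of -0.57 ± 0.18 and -0.59 ± 0.18. With Ddx3y as a covariate Ifih1 passed in both comparisons, at -0.78 and -0.70 (limma adjusted p = 0.00769 and 0.0374), where 1.14% and 0.223% of all genes were called. In lung Ddx3y stood at only 2.63 to 21.07, far below the 330 to 422 of the 4 high tumour libraries. That fit therefore adjusts for low values of this gene and not for a difference like that between the tumours. Groups that did not overlap on the lower side were those of Zbp1 with CMV-siRE, beside 7.13% of genes, and of Zbp1, Dhx58 and Ddx58 with CMV-GE11-siRE, beside 2.48%. Tlr3 (0.12 ± 0.11 and 0.10 ± 0.11), Tlr7 (0.62 ± 0.31 and -0.29 ± 0.31) and Aim2 (0.37 ± 0.29 and 0.30 ± 0.29) did not pass. Of 11 macrophage markers tested 4, such as Adgre1 (0.94 ± 0.16), rose with CMV-siRE, beside 78 of 16165 genes. The sums of macrophage markers were 601 to 827 CPM in the controls and 801 to 956 with CMV-siRE, and their part in the sensor values was not tested.

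Kidney and thymus had no sensor call in any of the 6 comparisons. In kidney limma called 0.0% of 15105 genes in each comparison, with 1, 3 and 3 sensors at an unadjusted p under 0.05 for CMV-siRE and CMV-GE11-siRE against CMV-scrR and for CMV-GE11-siRE against CMV-siRE, beside 9.84%, 8.06% and 3.97% of all genes. In thymus it called 0.00609% of 16421 genes with CMV-siRE and 0.0% in the other 2 comparisons, with no sensor at an unadjusted p under 0.05, beside 5.65%, 9.44% and 2.81% of all genes in the 3 comparisons. In kidney the differences with CMV-siRE were above 0 for 7 of 10 sensors. Zbp1 had 522.2, 165.7, 302.8 and 168.4 with CMV-scrR and 1317, 863.6, 410.1 and 817.2 with CMV-siRE, a difference of 1.60 ± 0.72 (limma adjusted p = 0.505), the opposite sign to that in lung, liver and spleen. Dhx58 had 399.6, 213.9, 280.1 and 211.1 with CMV-scrR and 474.6, 449.2, 477.5 and 558.6 with CMV-siRE, all 4 higher, which was so for 8.27% of genes, while 10.1% had all 4 lower. Its difference of 0.87 ± 0.55 did not pass (adjusted p = 0.601), but did in a fit of only these 8 libraries, whose spread leaves out CMV-GE11-siRE (adjusted p = 0.035) and which called 7.24% of all genes.

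The CMV-GE11-siRE kidneys split into pairs. Zbp1 had 117.8, 742.6, 92.50 and 1033 and Dhx58 97.44, 525.3, 96.16 and 629.8, so numbers 2 and 4 were high and numbers 1 and 3 low for both. Number 4 was the lowest of all 12 kidneys for Ifih1 (216.4), Eif2ak2 (109.5), Tlr3 (68.85) and Aim2 (4.583), so that within 1 library some sensors were high and others low. Its mitochondrial share was 3.692%, against 9.6% to 12.66% in the other 11 kidneys, and whether its RNA or cell makeup bears on these values was not tested. Against CMV-siRE the 4 CMV-GE11-siRE kidneys were all lower for Ddx58 (-0.98 ± 0.24), Ifih1 (-1.08 ± 0.34) and Eif2ak2 (-1.17 ± 0.42), with limma adjusted p = 0.999 for each, beside 0.887% of all genes with all 4 lower.

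CMV-GE11-siRE library 4 stood apart in thymus as well. There Zbp1 was at 3662 against 879.5, 1597 and 1018 in the other 3, Dhx58 at 1314 against 363.0 to 527.4, Tmem173 at 1740 against 685.1 to 1110 and Tlr9 at 602.0, while Eif2ak2 (252.6), Tlr3 (30.62) and Aim2 (111.1) were the lowest of the 12 thymus libraries. The control thymuses were close together for Zbp1, at 1079, 998.5, 1252 and 1086, and those given CMV-siRE stood at 1772, 1955, 1128 and 1860. The difference of Zbp1 with CMV-siRE, 0.58 ± 0.36, did not pass (limma adjusted p = 0.699), but did in a fit of only those 8 libraries (0.58, adjusted p = 0.0409) as it did when the mitochondrial share was a covariate (0.68, adjusted p = 0.0366). These fits called 10.2% and 17.2% of all genes, against 0.00609%. The mitochondrial share of thymus library 4 of CMV-GE11-siRE was the lowest of the series, at 0.5577%, and its part in these values was not tested.

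**Figure D3:**
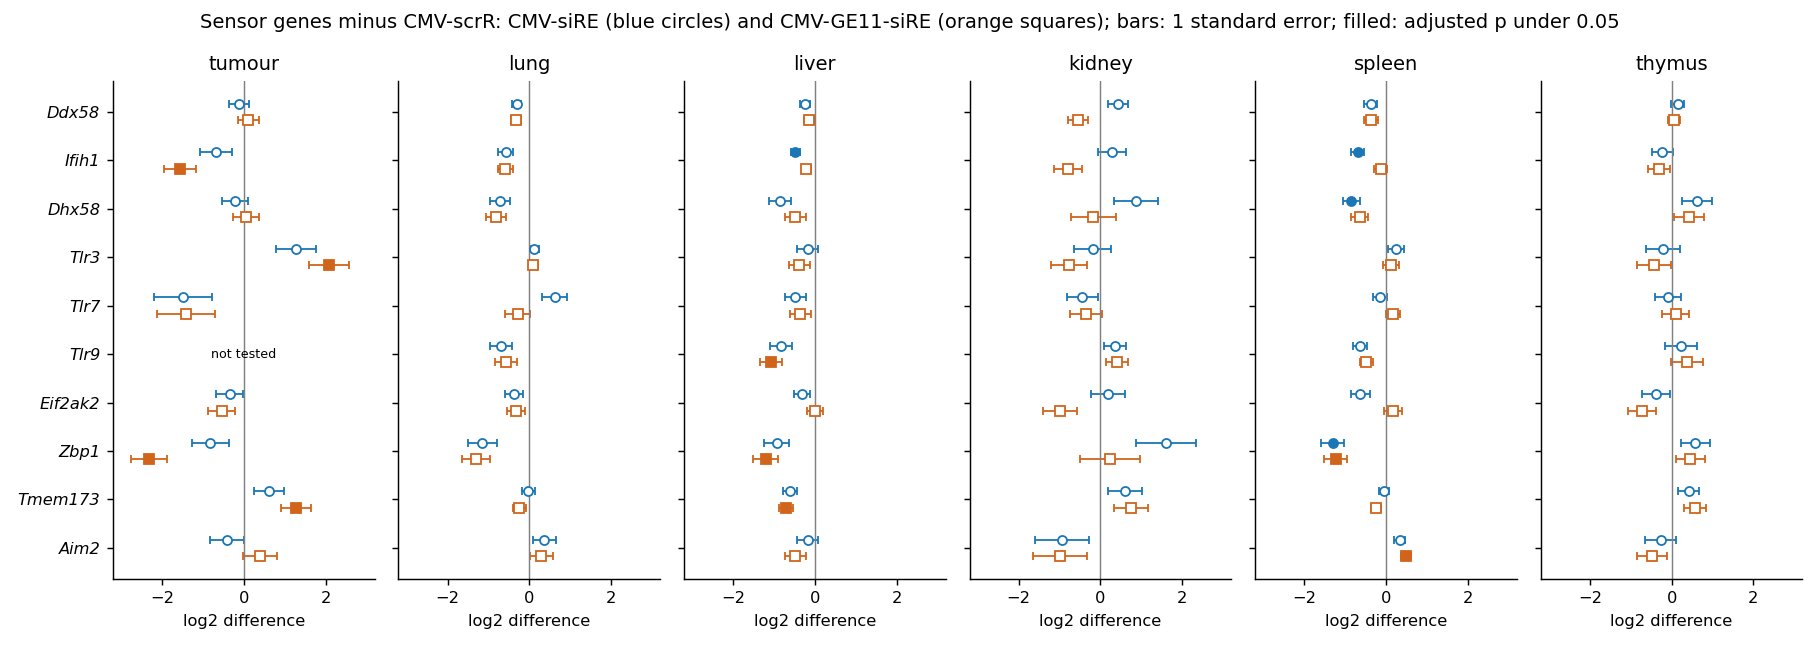
Difference of CMV-siRE (blue circles) and CMV-GE11-siRE (orange squares) from CMV-scrR in log2(value + 1), with bars of 1 SE, for the 10 sensors in 6 tissues; filled points have an adjusted p under 0.05. Filled points lie below 0 in liver and spleen except Aim2 in spleen, on both sides of 0 in tumour, and are missing in lung, kidney and thymus.

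The same 2 control numbers stood out in several organs. CMV-scrR libraries 1 and 3 were the highest pair of the 4 controls for 8 of 10 sensors in lung, 7 in kidney, 6 in liver and 6 in spleen, for 2 in thymus (Tlr3 and Aim2) and for none in tumour. The share of all genes with this pair highest was not counted, and several of the sensors are correlated with each other. The mean log2 level of 20 other interferon targets was likewise highest in numbers 1 and 3 in these 4 organs, at 11.16 and 10.75 in lung, 10.76 and 9.96 in liver, 11.43 and 10.79 in spleen and 10.17 and 9.52 in kidney. The sources used here do not say whether a number stands for 1 animal across organs. Between tumour and organs, Ddx3y was at 330 to 422 in tumour library 2 of each circuit and in tumour library 4 of CMV-siRE. It was at most 22.9 in every organ library, so those tumours and the organs of the same number differ in this Y-linked gene. Without CMV-scrR libraries 1 and 3 the calls over all genes went from 228 to 64 in lung with CMV-siRE, from 585 to 126 and 612 to 85 in liver, and from 739 to 283 and 923 to 73 in spleen (CMV-siRE, then CMV-GE11-siRE). These fits also have 2 fewer controls. Where this pair is the highest of a gene, leaving it out lowers the control mean by construction.

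**Figure D4:**
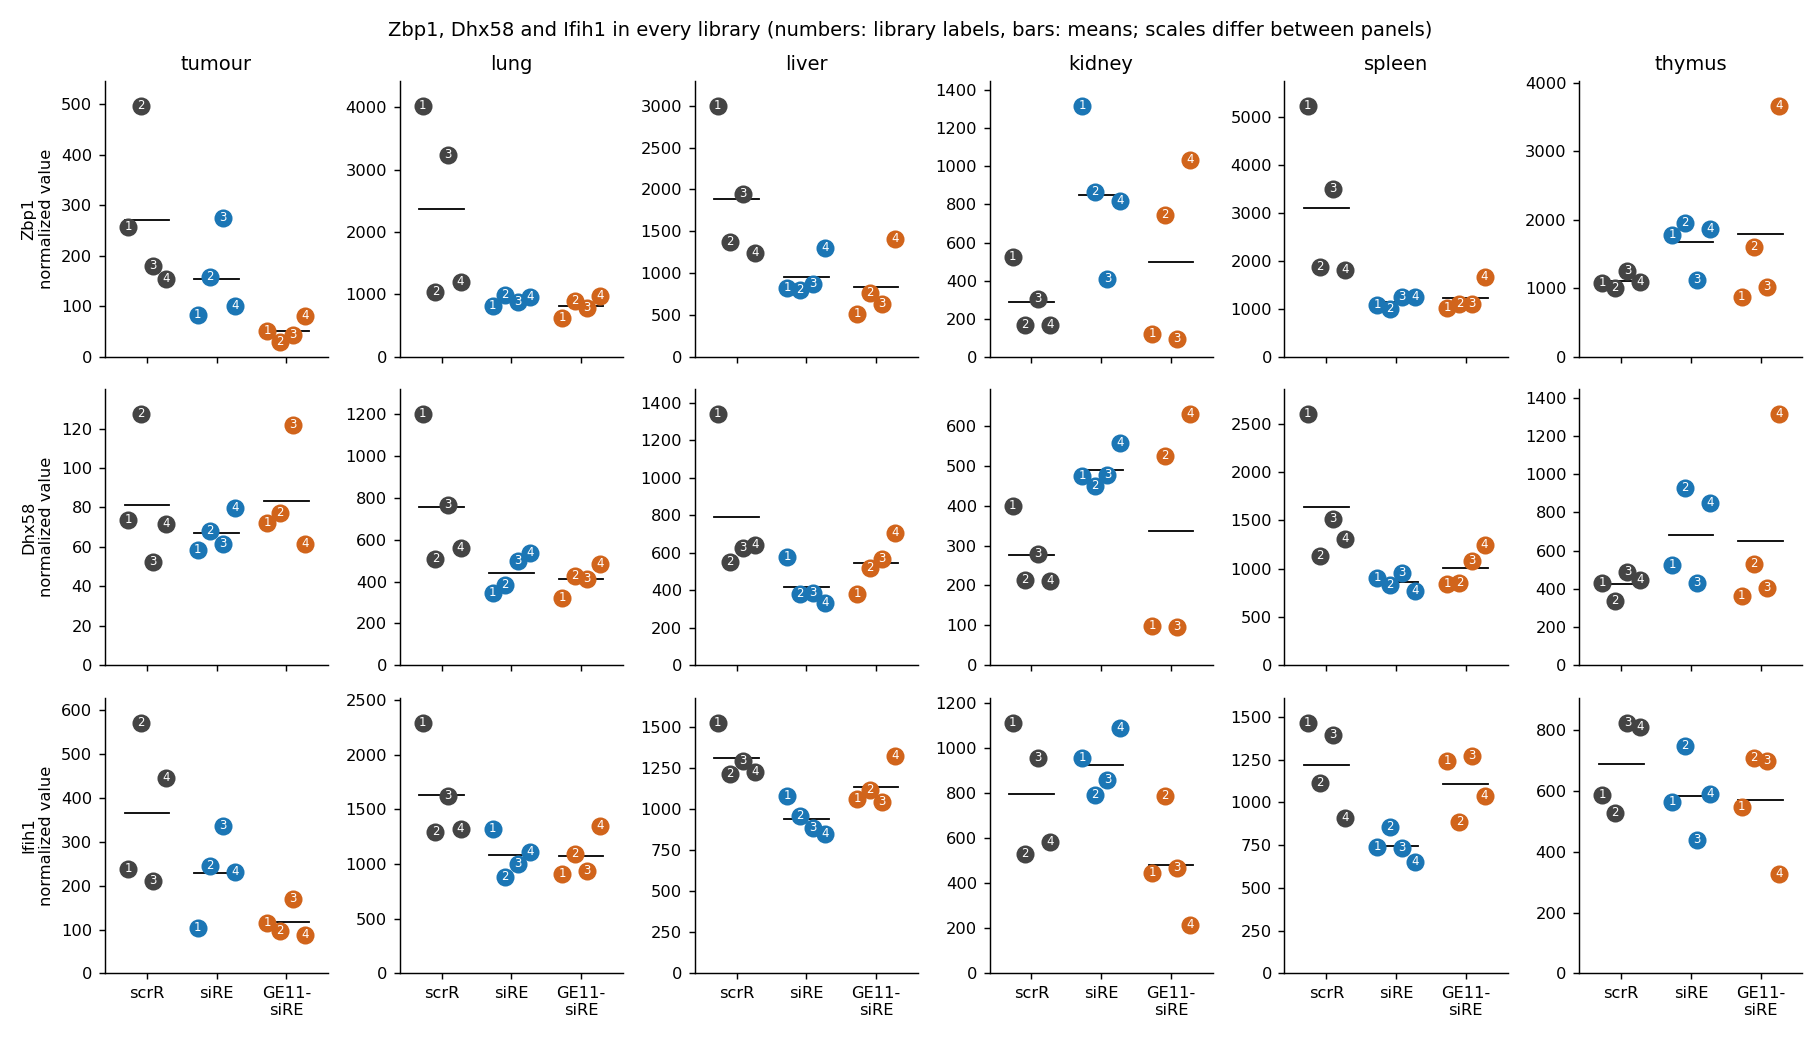
Normalized value of Zbp1, Dhx58 and Ifih1 in each of the 12 libraries of each tissue, with library numbers inside the points and bars for group means. In lung, liver, spleen and kidney the controls numbered 1 and 3 lie above numbers 2 and 4 for Zbp1, and in kidney and thymus CMV-GE11-siRE number 4 stands apart.

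The other genes of nucleic acid sensing were read from lists of known pathway members. The 18 other sensors include the OAS family, which makes the second messenger of RNase L, and Ifit1, which binds foreign RNA ends. Of these 18, 8 fell and none rose in spleen with CMV-siRE, where 2.88% of all genes fell. With CMV-GE11-siRE 7 fell and 1 rose in spleen, where 3.47% and 2.29% of all genes did. Oasl2 had differences of -2.17 ± 0.20 and -1.62 ± 0.20 there (limma adjusted p = 0.000129 and 0.00252), and Oas3 -1.90 ± 0.21 and -1.23 ± 0.21. The gene that rose was the helicase Dhx36 (0.41 ± 0.09). In liver, where 1.97% and 2.04% of all genes fell, 4 and 7 of the list did, such as Oas3 (-1.35 ± 0.22 and -1.31 ± 0.22) and Oasl2 (-1.32 ± 0.28 and -1.51 ± 0.28). In lung only Oasl2 fell (-1.28 ± 0.27, CMV-siRE), beside 150 of 16165 genes. In tumour 7 fell with CMV-GE11-siRE, beside 19.8% of all genes, among them Ifi204 (-2.70 ± 0.54) and the endosomal receptor Tlr13 (-2.15 ± 0.51). Without CMV-scrR libraries 1 and 3, 5 and 2 of the spleen list still fell and none in lung or liver. Scaled by the column total, none of the tumour list fell and 8 rose, where 81.0% of all genes rose.

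The adaptors, ligases and kinases downstream of the sensors, 14 in the list, had 2 and 3 calls in liver and 2 and 4 in spleen (CMV-siRE, then CMV-GE11-siRE), all lower, and none in lung. Of all genes, 1.97% and 2.04% fell in liver and 2.88% and 3.47% in spleen. Irf7, the transcription factor that drives interferon alpha genes, fell in liver (-0.79 ± 0.19 and -1.14 ± 0.19), in spleen (-1.12 ± 0.26 and -1.17 ± 0.26) and in tumour with CMV-GE11-siRE (-1.96 ± 0.57). Unc93b1, the chaperone that brings endosomal Toll-like receptors to their compartment, fell in liver (-0.49 ± 0.11 and -0.60 ± 0.11) and in spleen with CMV-GE11-siRE (-0.44 ± 0.10), where Tlr9 did not pass. Trim25, a ubiquitin ligase of the RIG-I pathway, fell in spleen with CMV-siRE (-0.46 ± 0.11) and in liver with CMV-GE11-siRE (-0.42 ± 0.10). In tumour 3 of the 14 rose, Irf3 (2.37 ± 0.41), Rnf135 (1.04 ± 0.29) and Tbk1 (0.72 ± 0.23), and 4 fell, beside 22.1% and 19.8% of all genes. Counts of the list without CMV-scrR libraries 1 and 3 were 0 in lung and spleen, and 1 gene fell in liver with CMV-GE11-siRE. The tumour counts of 3 and 4 became 7 and 0 under the total without mitochondrial genes and 12 and 0 under the column total. Of all genes, 43.2% and 81.0% rose on these scales.

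Of 11 inflammasome and necroptosis effectors, which act downstream of Aim2 and Zbp1, none was called in lung. Il1b fell in spleen with both siRNA circuits (-1.09 ± 0.24 and -1.23 ± 0.24), and Il18 rose there with CMV-siRE (0.74 ± 0.14) and fell in liver with CMV-siRE (-0.47 ± 0.11). In tumour with CMV-GE11-siRE 5 fell, among them Casp1 (-1.53 ± 0.36), the adaptor Pycard (-1.31 ± 0.27) and the necroptosis executor Mlkl (-0.96 ± 0.27), and the pore protein Gsdmd rose (1.17 ± 0.27). Of all genes in that comparison, 19.8% fell and 22.1% rose. Under the total without mitochondrial genes none of these 11 fell and 2 rose, where 43.2% of all genes rose. Under the column total 8 rose, where 81.0% of all genes did.

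Of 15 nucleases and brakes that limit sensing, Socs1 and Samhd1 fell in spleen with both siRNA circuits (Socs1 -1.48 ± 0.28 and -1.55 ± 0.28, Samhd1 -0.72 ± 0.13 and -0.66 ± 0.13) and in liver with CMV-GE11-siRE (-1.88 ± 0.44 and -1.03 ± 0.21). Usp18, an interferon-induced brake on the interferon receptor, fell in liver with both (-1.13 ± 0.22 and -0.95 ± 0.22) and in spleen with CMV-siRE (-1.19 ± 0.24). In tumour 3 of 14 tested fell, among them the DNA exonuclease Trex1 (-1.58 ± 0.45), and Skiv2l rose (1.34 ± 0.28). Of all tumour genes with CMV-GE11-siRE, 19.8% fell and 22.1% rose, so the count that fell stands near that of genes at large. Under the total without mitochondrial genes none of the list fell and 5 rose, where 43.2% of all genes rose. Without CMV-scrR libraries 1 and 3, 2 of the list fell in spleen with CMV-siRE and none in lung or liver.

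Of 11 interferon signalling genes 4 fell in lung with CMV-siRE, 4 and 5 in liver and 4 and 3 in spleen (CMV-siRE, then CMV-GE11-siRE), and none rose there. Among all genes, 150 of 16165 fell in lung with CMV-siRE, 1.97% and 2.04% in liver and 2.88% and 3.47% in spleen. Irf1, a transcription factor induced by interferon, fell in lung with CMV-siRE (-0.89 ± 0.19), in liver (-0.64 ± 0.16 and -0.81 ± 0.16) and in spleen (-0.85 ± 0.16 and -0.87 ± 0.16). In tumour with CMV-GE11-siRE 2 of the 11 rose and 2 fell, near the 22.1% and 19.8% of all genes. With CMV-scrR libraries 1 and 3 left out, 2 of the 11 fell with CMV-siRE in lung and 2 in spleen. Under the column total 10 rose in tumour and none fell, where 81.0% of all genes rose. The 13 genes of the integrated stress response, which Eif2ak2 feeds into, had no call in lung or liver. In spleen with CMV-siRE 3 of them fell, led by Ppp1r15a (-2.002 ± 0.28), beside 2.88% of all genes. In tumour with CMV-GE11-siRE 4 rose, among them the kinases Eif2ak3 (1.43 ± 0.25) and Eif2ak4 (1.19 ± 0.25), and 2 fell, again beside 22.1% and 19.8% of all genes. In kidney and thymus no gene of any of these lists was called. Among the interferon genes themselves, the 14 alpha and beta genes reached at most 4.151, for Ifna14 in a single spleen library. Ifng, the type II interferon, was above 0 in all 12 libraries of lung, spleen and thymus, up to 52.56, 55.54 and 20.75. It was tested in lung and spleen and did not pass, with differences of -0.71 ± 0.33 and -1.13 ± 0.33 in spleen (limma adjusted p = 0.243 and 0.0611).

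Calls among the 20 interferon targets were made in comparisons with and without a call of Zbp1. In spleen 9 of 20 fell with each siRNA circuit, with medians of -0.96 and -0.89 (log2), in lung 7 fell with CMV-siRE (median -0.99) and none was called with CMV-GE11-siRE (median -1.02), and in liver 9 and 10 fell and Cxcl9 rose (2.84 ± 0.34 and 2.00 ± 0.34). Among all genes, 2.88% and 3.47% fell in spleen, 150 of 16165 in lung with CMV-siRE and 1.97% and 2.04% in liver, where 299 and 317 of 14484 rose. Examples of the targets that fell are Rsad2 (-2.82 ± 0.25) and Isg15 (-2.47 ± 0.29) in spleen with CMV-siRE and Igtp in lung (-2.08 ± 0.29). Rsad2 was also the target that rose in spleen with CMV-GE11-siRE against CMV-siRE (1.81 ± 0.25, limma adjusted p = 0.00925). In kidney, with no calls, the CMV-siRE median was 1.20 and that of CMV-GE11-siRE -0.46. In tumour with CMV-GE11-siRE 11 fell (median -1.55), beside 19.8% of all genes, against 6 under the total without mitochondrial genes, beside 4.34%. Under the column total 6 rose and none fell, where 81.0% of all genes rose. Without CMV-scrR libraries 1 and 3, 5 and 1 fell in spleen (medians -0.52 and -0.35), 3 in lung with CMV-siRE (median -0.50), and 1 with each circuit in liver (medians -0.59 and -0.70).

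**Figure D5:**
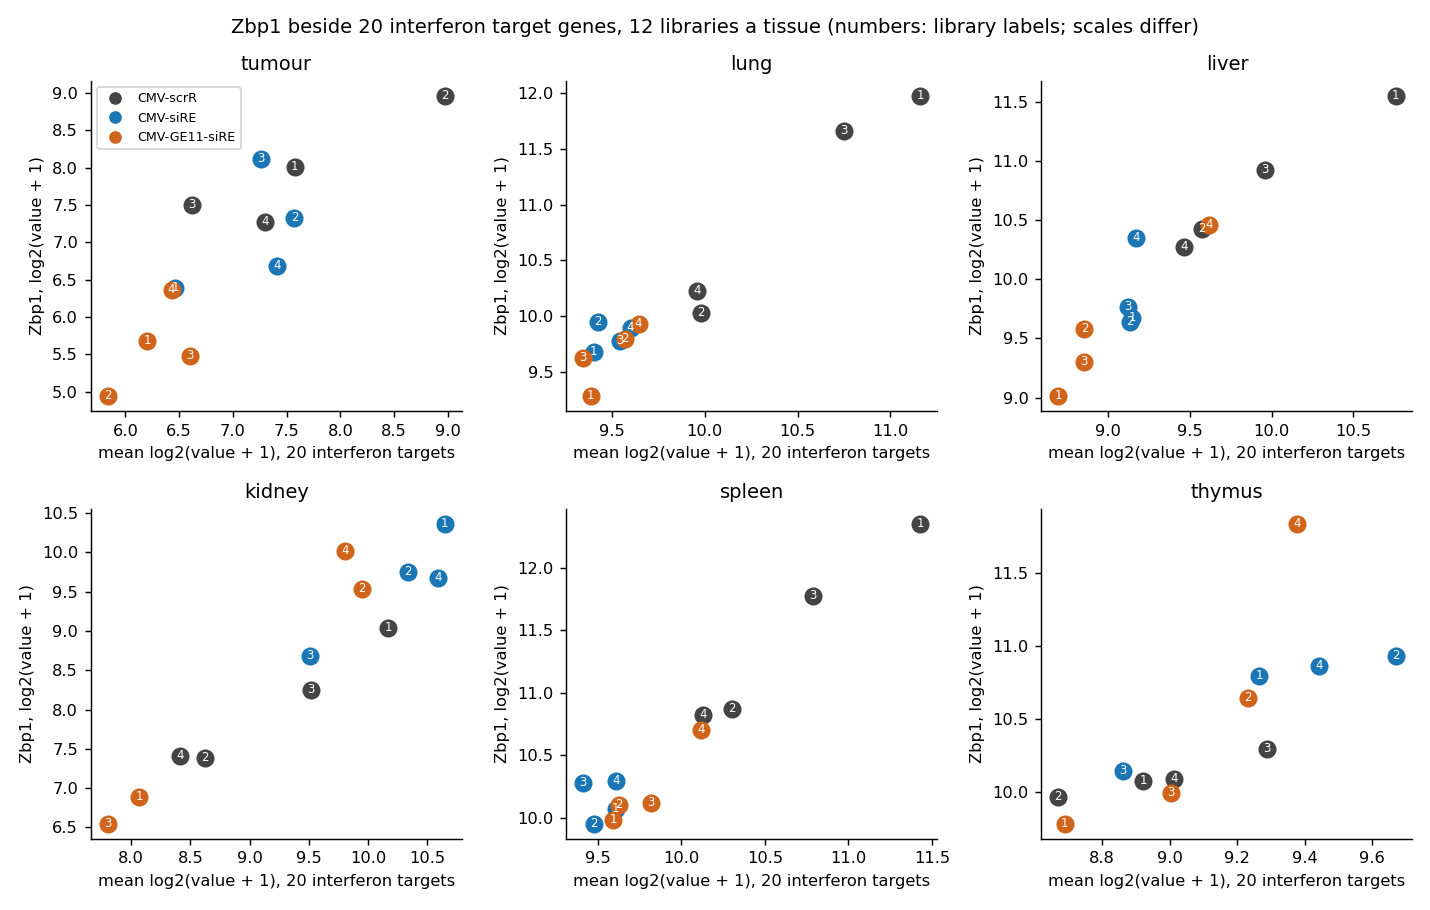
Level of Zbp1, log2(value + 1), against the mean log2 level of 20 other interferon targets in the 12 libraries of each tissue, with colours for the circuits. In lung, liver and spleen the CMV-scrR libraries numbered 1 and 3 lie at the upper end of both axes.

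The genes whose pattern was most like that of each sensor were taken over the 60 organ libraries and 13142 genes. Likeness was Pearson's r of log2(CPM + 1) with the mean of each tissue and circuit removed, so it reflects the spread within groups. Zbp1 was most like Xaf1 (0.927), Ifi35 (0.921) and Oasl2 (0.911), and Dhx58 like Rtp4 (0.931), Irf7 (0.931) and Usp18 (0.919). Ddx58 was most like Parp14 (0.845), Ifih1 like Ifi44 (0.832) and Eif2ak2 (0.825), and Tlr9 like Pik3ap1 (0.854). Leaving out the kidney and thymus libraries numbered 4 of CMV-GE11-siRE, chosen after seeing the data, moved several of these correlations. Ifih1 with Dhx58 went from 0.144 to 0.723 and with Zbp1 from 0.150 to 0.675, while Dhx58 with Zbp1 went from 0.861 to 0.813. In those libraries Zbp1 and Dhx58 were high and Ifih1 low.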

How the data were processed

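Total RNA of 6 tissues was measured in 72 libraries (TRIzol extraction and TruSeq RNA libraries, per the labels' protocols). The deposited tables, 1 per tissue, hold signal values, which per the labels and the values themselves are gene counts that the authors scaled by size factors within a tissue. Only DESeq2 is named in the submitters' processing notes, with no version. Aligner, build and strand setting: not given in the sources used here. Versions of 35968 gene identifiers matched GENCODE M21, and those of 79 did not.

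The values are fractional and not counts, so limma 3.58.1 (limma-trend, R 4.3.3) was run on log2(value + 1) in place of the edgeR test planned for read counts. A gene was tested in a tissue if 4 or more of its 12 libraries reached 10. Each fit held 12 libraries with 1 mean per circuit and no covariate, and gave 3 comparisons. Adjustment was by Benjamini-Hochberg over the genes of 1 comparison (threshold 0.05). Differences on this scale understate changes of low genes. Approximate depth is the column total over the most frequent value under 5, and since the values are no counts, no counting interval was given. Levels between tissues are CPM (value over the column total), and between genes CPM per kilobase of exon. Tables were prepared with Python 3.11.15 and pandas 2.3.3, and the fit was tested on simulated data.

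The 10 members and the gene lists were chosen with earlier results of these data known. All members are named. From each list, the called members with the largest differences were named for each comparison, or abundant members where none was called. Some list members that this rule names are not reported here. Alternatives planned were a pseudocount of 0.1, no filter, a fit of only the 8 libraries compared, a block for the replicate number, each library left out, rescaling by the column total with and without mitochondrial genes, the mitochondrial share or Ddx3y as a covariate, and lung without CMV-scrR libraries 1 and 3. The same without these libraries in liver, spleen and kidney, and correlations without CMV-GE11-siRE library 4 of kidney and thymus, were chosen after seeing the data.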

Additional observations from a re-analysis of the deposited data

Results flagged for a closer look

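Of 177 groups of 4 libraries, each a sensor in a tissue and circuit, 6 held a library whose gap to the nearest other was above the 95% critical value of Dixon's test, and chance flags about 1 group in 20. Aim2 was at 404.3 in CMV-siRE lung library 3 (others 323.2 to 333.2), at 4.583 in CMV-GE11-siRE kidney library 4 (others 38.77 to 52.99) and at 922.7 in CMV-scrR spleen library 1 (others 1170 to 1204). Eif2ak2 was at 430.4 in CMV-GE11-siRE liver library 2 (others 569.0 to 573.7), Tmem173 at 131.5 in CMV-siRE liver library 3 (others 168.1 to 172.5) and Ddx58 at 1750 in CMV-scrR liver library 1 (others 1183 to 1224).

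In 3 cases all 4 libraries of a circuit lay on 1 side of the 4 they were compared with in one tissue and on the other side in another tissue, and the difference between the tissues was not tested. Dhx58 with CMV-siRE against CMV-scrR was at -0.85 (log2) in spleen and 0.87 in kidney. Of all genes, 7.06% were lower without overlap in that spleen comparison and 8.27% higher in that of kidney. Tmem173 with CMV-GE11-siRE against CMV-scrR was at -0.70 in liver and 1.29 in tumour, beside 5.68% of all genes lower and 23.7% higher. Ifih1 with CMV-GE11-siRE against CMV-siRE was at -1.08 in kidney and 0.57 in spleen, beside 0.887% of all genes lower and 2.91% higher. How many of all genes change sides between tissues was not counted.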

How the results depend on the processing

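Counts are of sensors called, by limma. When the mitochondrial share was a covariate, the count was 0 in tumour with CMV-GE11-siRE against CMV-scrR (4 as deposited), in liver with CMV-siRE (1) and CMV-GE11-siRE (3) and in spleen with CMV-siRE (3) and CMV-GE11-siRE (2), and 1 in thymus with CMV-siRE (0). In these tumour and spleen comparisons the share did not overlap between the circuits, so it can hardly be separated from them. With Ddx3y, at most 22.9 in the organs, as a covariate the count was 1 in lung with each siRNA circuit (0), and 0 in liver with both and in spleen with CMV-GE11-siRE. Without CMV-scrR libraries 1 and 3 it was 0 in liver and spleen with both. With no filter it was 0 in liver and 1 in spleen with CMV-GE11-siRE. In fits of only 8 libraries it was 0 in liver and spleen with CMV-GE11-siRE, and 1 in kidney (Dhx58) and thymus (Zbp1) with CMV-siRE. Scaled by the column total, 6 sensors were called higher in tumour with CMV-GE11-siRE against CMV-siRE (0), where 10788 genes of all rose and 38 fell, and Ifih1 in tumour with CMV-GE11-siRE reversed against CMV-scrR, to 0.53 ± 0.47 (adjusted p = 0.304). The cause was not tested. A pseudocount of 0.1 moved no count by over 1.5 times.

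With 1 library left out, the count ranged from 4 to 4 in tumour with CMV-GE11-siRE against CMV-scrR, 0 to 2 in tumour with CMV-GE11-siRE against CMV-siRE (2 without CMV-siRE library 1, Ifih1 at -1.23 and Zbp1 at -1.76), 0 to 1 in lung with CMV-siRE, 0 to 3 in liver with either siRNA circuit, 0 to 4 in spleen with CMV-siRE and 0 to 3 with CMV-GE11-siRE, and was 0 in the other 11 comparisons.

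With the replicate number as a block the count was 4 in tumour with CMV-GE11-siRE, 1 and 1 in liver and 2 and 0 in spleen (CMV-siRE, then CMV-GE11-siRE). Deviations of same-numbered libraries of different circuits, within a tissue, correlated between -0.284 and 0.272, and in 0 of 18 comparisons were all pairs over 0.1. Organs were not compared in this way, so it cannot tell whether a number stands for a shared animal or batch.

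Tlr9 in tumour did not reach the minimum level for the test, so 59 of 60 pairs of sensor and tissue were tested. Each tissue was normalized on its own, and the tables hold no raw counts, so counting error could not be separated from the spread between libraries.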
